A study of Mus musculus with 6 samples.

Results

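*Traj58*, *Traj57* and *Traj56* are the joining segments at the V-proximal end of the mouse T cell receptor α-chain locus that these cells used in numbers. They were followed in 6 libraries of *Trav* amplicons from thymus, and their members were the sequences whose J assignment listed only these genes (written TRAJ58, TRAJ57 and TRAJ56 in the lists). These 3 of the 53 *Traj* genes that were listed alone accounted for 637835 of 3675237 sequences. By segment, *Traj56* was assigned to 291696 sequences, *Traj57* to 221761 and *Traj58* to 124377, and 1 sequence listed a pair of them.

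Pre-selection DP thymocytes, CD4 and CD8 double-positive cells sorted without surface TCRβ, CD69 or CD5, were compared between WT BALB/c and SKG mice. SKG mice carry a spontaneous point mutation in an SH2 domain of ZAP70, the kinase that relays T cell receptor signals, and the mutation weakens those signals. Both genotypes were bred from a cross of SKG with BALB/cJ mice, so the controls share that mixed origin. There was 1 library for each genotype and each of 3 amplicons (*Trav19*, *Trav9* and *Trav11*), so that no value has a replicate check and every test below compares 2 libraries and not the genotypes. The age of the mice and the number of thymi pooled per library are not given in the sources used here, and lists of rearrangements hold no marker genes by which the sorted cell type could be checked. The labels name genomic DNA as the molecule while the protocol describes RNA turned into cDNA. A share is a share of distinct sequences, since exact duplicates had been removed, and is neither a share of reads nor of cells.

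Rearrangement of the α-chain locus starts when germline transcription from the T early α (TEA) promoter, which lies upstream of the *Traj* segments, opens their V-proximal end. First joins therefore use V-proximal *Traj* segments and *Trav* genes close to them. A cell whose first join is not productive or not selected can rearrange again on the same chromosome, joining a more distant *Trav* to a *Traj* further downstream and deleting the earlier join. Productive joins keep the reading frame, and unproductive joins do not or carry a stop codon.

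The 3 segments are shown with the recombination signal on their 5′ side, because they are the items compared throughout. The signal is made of a nonamer, a spacer of 12 bases and a heptamer that borders the coding bases. Sequences are on the plus strand of chromosome 14 in NCBIM37, which is neither the mm10 build that the labels name nor a BALB/c genome, with annotation from GENCODE, where *Traj57* and *Traj56* appear as Gm16768 and Gm16769. Capitals mark, from 5′ to 3′, the nonamer, the heptamer and the codons of the Phe-Gly-X-Gly motif that J segments share.
*Traj58*, chr14:54776927-54777017: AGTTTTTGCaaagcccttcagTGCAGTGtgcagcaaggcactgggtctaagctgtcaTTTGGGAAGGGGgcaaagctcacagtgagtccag
*Traj57*, chr14:54778154-54778244: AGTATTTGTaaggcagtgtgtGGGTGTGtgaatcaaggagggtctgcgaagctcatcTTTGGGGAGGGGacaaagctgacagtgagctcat
*Traj56*, chr14:54778910-54779000: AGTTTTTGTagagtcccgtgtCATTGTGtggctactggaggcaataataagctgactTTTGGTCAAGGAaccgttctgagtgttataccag

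The 3 segments lie within 2.046 kb, with 1162 bases between *Traj58* and *Traj57* and 693 between *Traj57* and *Traj56*, and the next segment used in numbers, *Traj53*, starts 3318 bases further on. Against the nonamer GGTTTTTGT and the heptamer CACTGTG, searched on the coding strand and within 3 bases of the annotated start, the *Traj56* signal matched 14 of 16 letters. The signals of *Traj58* and *Traj57* matched 11 each, and in both the heptamer matched only 4 of 7 letters. Over the 59 named *Traj* segments the median was 12 matches, 39 segments had more than *Traj58* or *Traj57*, and 7 had more than *Traj56*. In *Traj57* the best match lay 2 bases inside the annotated start. A match is a description of letters, and its part in use was not tested. Upstream of *Traj58*, use all but ended: *Traj59* was assigned to 1 sequence, *Traj60* to 16 and *Traj61* to 4 in all libraries together.

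In the WT library of *Trav19*, the V gene nearest to the *Traj* segments of those amplified, 42.7% of productive sequences (100171 of 234415) joined to the 3 segments, and in the SKG library 39.2% (98796 of 252048). In every other V gene the share lay between 1.01% and 16.1%, and *Trav9d-4* had the lowest share, with 1.63% in WT and 1.01% in SKG. The V genes analysed were *Trav19*, *Trav11* (assignments to *Trav11* or *Trav11d*, which are not separated) and the 6 *Trav9* genes with at least 2000 productive sequences in each library, each listed alone. Of the sequences with the 3 segments, 99.7 to 99.97% in the *Trav19* and *Trav11* libraries carried an analysed V gene, and 97.3% in SKG *Trav9*, while 179223 of 184765 did in WT *Trav9*. The *Trav9* genes are nearly identical, so that sequences listing several of them were left out and a misassignment between them cannot be told from a real difference.

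Between these ends, the V genes stood close together. In WT, the 3 segments together took 16.1% of *Trav9-2*, 14.1% of *Trav9-4*, 12.8% of *Trav9-3*, 11.5% of *Trav9d-2*, 10.3% of *Trav11* and 8.12% of *Trav9d-3*. In SKG, they took 10.9% of *Trav9-4*, 8.93% of *Trav9-3*, 8.19% of *Trav9-2*, 7.70% of *Trav9d-2*, 7.42% of *Trav11* and 5.21% of *Trav9d-3*. Counting error was small beside these values, with a 95% Wilson interval of 42.5 to 42.9% for WT *Trav19* and of 0.929 to 1.10% for SKG *Trav9d-4*. Sequences of the same rearrangement are not independent, however. The variance of each V gene was therefore also multiplied by a factor between 25.9 (*Trav9d-2*) and 99.8 (*Trav19*). The factor was estimated from how unevenly the productive share changed between the libraries over segments. It was not estimated from the *Traj* shares to which it is applied here. On that scaled error, *Trav9d-2* and *Trav11* could not be told apart in WT (1.12 points, 95% interval -0.562 to 2.80), and in SKG the steps from *Trav9-3* to *Trav9-2*, on to *Trav9d-2* and on to *Trav11* had intervals that included 0. The other neighbours in either order differed beyond it. By the RefSeq order of named *Trav* genes in GRCm38.p6, which is not a BALB/c genome, 3 lie between *Trav19* and *Traj61*. There are 16 such genes for *Trav9-4*, 24 for *Trav9-2*, 30 for *Trav11*, 100 for *Trav11d*, which is pooled with it here, 84 for *Trav9d-4*, 90 for *Trav9d-3* and 94 for *Trav9d-2*. *Trav9-3* had no position in that order. Among the other V genes, shares did not follow it throughout. In WT, *Trav9-2* stood 2.08 points above the nearer *Trav9-4* (95% interval 0.627 to 3.54), and in both genotypes *Trav9d-4* stood below *Trav9d-3* and *Trav9d-2* although it is the nearest of these to *Traj61*.

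The 3 segments were not used alike. *Traj56* was the segment used most of all in the WT libraries of *Trav19* (18.6% of productive sequences), *Trav9-2* (7.55%), *Trav9d-2* (6.16%) and *Trav9-3* (5.65%), and over the 8 V genes its median rank in WT was 2.5. *Traj57* had a median rank of 9 and *Traj58* of 17. In SKG the median ranks were 7.5 for *Traj56*, 18.5 for *Traj57* and 25.5 for *Traj58*, and *Traj56* still ranked first in *Trav19* with 20.01%.

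**Figure D1:**
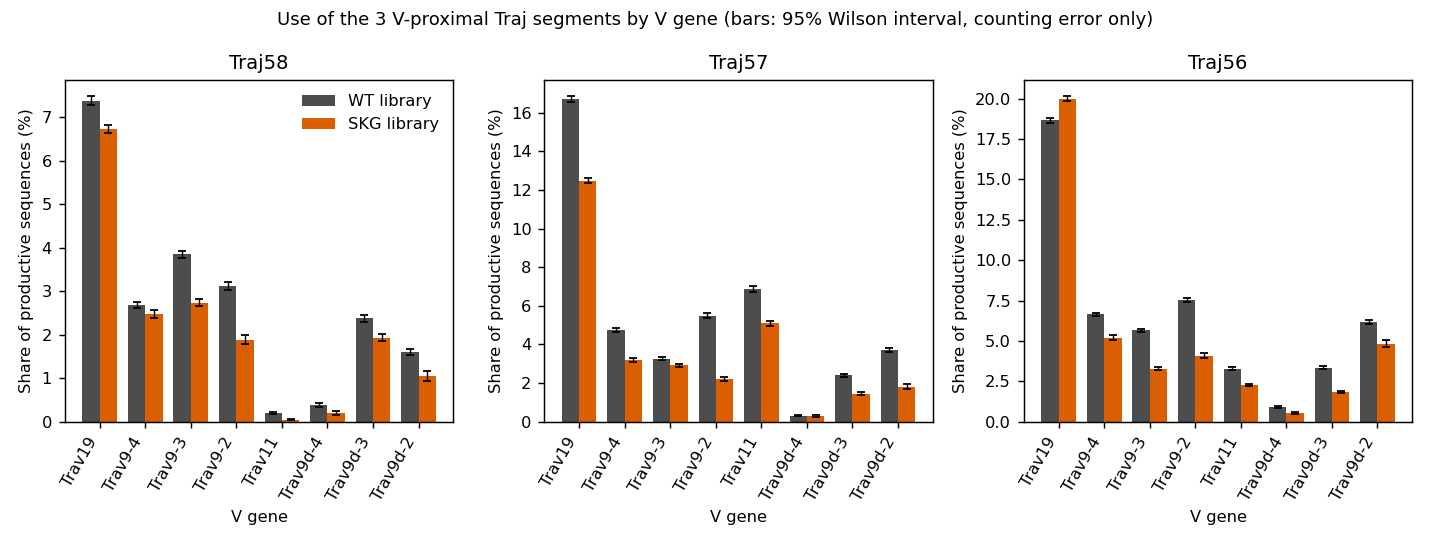
Share of productive sequences (%) of each V gene, with *Trav19* first, that carried *Traj58*, *Traj57* or *Traj56* in the WT and the SKG library; each bar is 1 library, the error bars are 95% Wilson intervals and cover counting error only, and the 3 panels have different scales. *Trav19* stands above all other V genes in each panel, *Traj56* in *Trav19* is the only pair in which the SKG bar is higher (18.6% in WT and 20.01% in SKG), and *Traj58* in *Trav11* is close to 0 (0.203% and 0.0464%).

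In *Trav11*, the V gene of the invariant NKT cell receptor, *Traj57* led the 3 segments. It made up 66.4% of the productive joins to the 3 segments in WT and 68.6% in SKG, whereas *Traj56* was the most frequent of the 3 in 6 of the other 7 V genes in SKG and in all 7 in WT. *Traj58* was nearly missing from *Trav11*, with 279 of 137708 productive sequences in WT (0.203%, Wilson interval 0.180 to 0.228%) and 71 of 152878 in SKG (0.0464%, 0.0368 to 0.0586%). It was low among the unproductive *Trav11* sequences too, at 0.497% in WT and 0.192% in SKG. Within that class *Traj57* held 7.85% and 4.72%. In the WT library of *Trav11*, *Traj57* had rank 3 among all segments, *Traj56* rank 15 and *Traj58* rank 32.

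Within *Trav19*, the 3 segments divided into 17.3% *Traj58*, 39.1% *Traj57* and 43.6% *Traj56* in WT. In SKG the *Traj58* part was 17.2%, the *Traj57* part 31.8% and the *Traj56* part 51.0%. In *Trav9-3* the *Traj57* part was 25.5% in WT and 32.7% in SKG, and the *Traj56* part 44.3% and 36.7%. *Traj58* reached its highest parts in *Trav9d-3*, with 29.2% in WT and 37.1% in SKG, and in *Trav9-3*, with 30.1% and 30.6%.

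**Figure D2:**
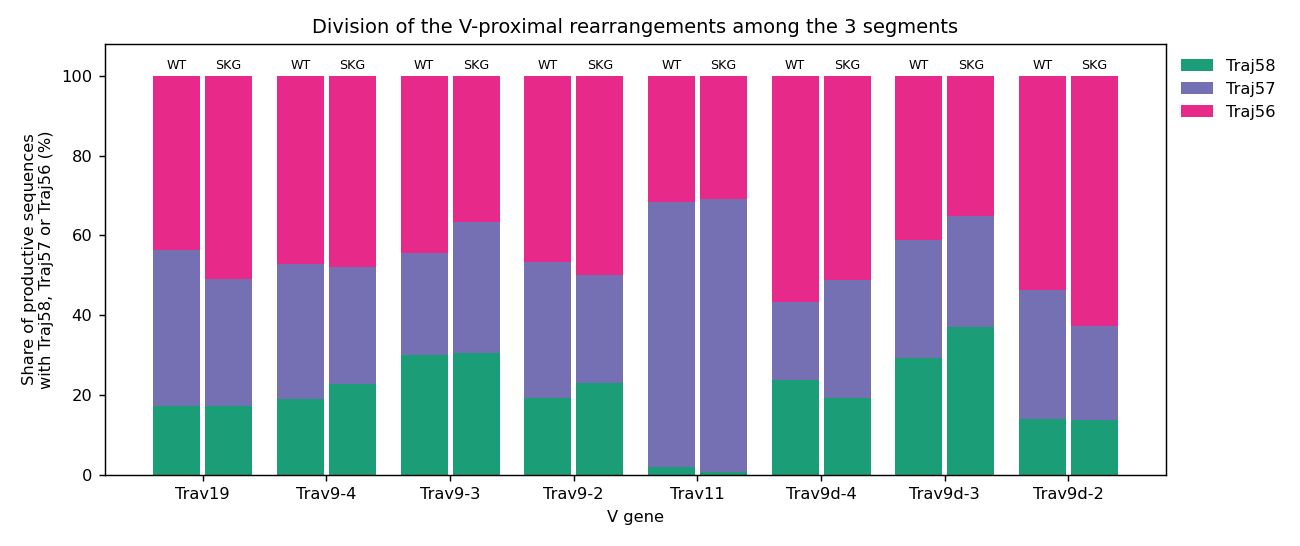
Division of the productive sequences that carried *Traj58*, *Traj57* or *Traj56* among the 3 segments (%), for 8 V genes with the WT library on the left and the SKG library on the right of each pair; each bar is 1 library and adds up to all such sequences. *Traj57* takes about the same large part of *Trav11* in both libraries (66.4% and 68.6%), and in *Trav19* the *Traj57* part is 39.1% in WT and 31.8% in SKG.

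In all 8 V genes, the SKG library had a lower combined share of the 3 segments than the WT library among productive sequences. The *Trav9* genes all come from the same WT and SKG libraries. The V genes, and the pairs of V gene and segment below, are therefore not independent comparisons. The difference was widest in *Trav9-2*, with -7.96 percentage points (scaled SE 0.880). It was -3.83 points in *Trav9-3* (0.559), -3.77 in *Trav9d-2* (0.865), -3.54 in *Trav19* (1.41), -3.20 in *Trav9-4* (0.745), -2.93 in *Trav11* (0.941) and -2.91 in *Trav9d-3* (0.615). In *Trav9d-4* it was -0.616 points (0.342), and its 95% interval, -1.29 to 0.0550, included 0. As a ratio, *Trav9-2* had 0.507 times the WT share and *Trav19* 0.917 times. Further downstream in *Trav19*, *Traj55* to *Traj47* held 29.5% in WT and 26.7% in SKG, *Traj46* to *Traj31* 23.5% and 26.7%, and *Traj30* to *Traj1* 4.33% and 7.39%.

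Segment by segment, 24 pairs of V gene and segment could be compared. The SKG share was below the WT share in 23 of them and at most 0.8 times the WT share in 18, while no pair was higher by the same factor. Over all V genes and segments with at least 100 sequences, the SKG share was below the WT share in 141 of 335 pairs. It was at most 0.8 times the WT share in 21.5% of them. The median log2 of SKG over WT share was -0.55 for the 3 segments and 0.06 for all segments. *Traj55* to *Traj47*, the neighbours downstream, were also lower by this factor in 27 of 48 pairs, with a median of -0.44, and higher in 3. For *Traj46* to *Traj31* 9 of 102 pairs were lower and 29 higher, and for *Traj30* to *Traj1* 18 of 161 were lower and 69 higher. Lower shares were thus not particular to the 3 segments and extended to their neighbours.

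A quasi-binomial comparison of the libraries, with the scaled variance and Benjamini-Hochberg adjustment over all 335 pairs, called 8 of the 24 pairs lower and none higher. Over all pairs it called 5.07% lower, 17 pairs, of which these 8 are part and 8 more were in *Traj55* to *Traj47*, and it called 5 higher. At an unadjusted p under 0.05, 12 of the 24 pairs and 10.4% of all 335 were lower. The 8 pairs called after adjustment were *Traj57* in 4 V genes, *Traj56* in 3 and *Traj58* in 1. With the largest variance factor applied to every V gene, 1 of the 24 pairs was called, *Traj57* in *Trav19*, the V gene to which that factor belongs.

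For *Traj57*, the share in *Trav9-2* fell from 5.49% (7757 sequences) to 2.21% (1340 sequences), a log2 ratio of -1.31 with a scaled SE of 0.26 and a quasi-binomial adjusted p of 2.03e-05. In *Trav19* it fell from 16.7% (39162) to 12.5% (31407), a log2 ratio of -0.42 with a quasi-binomial adjusted p of 0.00132. In *Trav9-4* it fell from 4.75% to 3.19% and in *Trav9d-2* from 3.69% to 1.82%, both with a quasi-binomial adjusted p of 0.0172. In *Trav11* it was 6.87% in WT and 5.09% in SKG, which did not pass (quasi-binomial adjusted p = 0.143). *Traj57* in *Trav9d-4* differed least on the log2 scale, with 0.319% and 0.299%, from 270 and 151 sequences.

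For *Traj56*, the lowest adjusted p of all pairs tested was found in *Trav9-3*, where the share fell from 5.65% (13438 sequences) to 3.27% (4681), a log2 ratio of -0.79 with a scaled SE of 0.14 (quasi-binomial adjusted p = 6.04e-07). In *Trav9-2* it fell from 7.55% to 4.09%, a log2 ratio of -0.88 (quasi-binomial adjusted p = 0.000108), and in *Trav9d-3* from 3.35% to 1.83%, a log2 ratio of -0.87 (quasi-binomial adjusted p = 0.00993). In *Trav9-4*, with 6.64% and 5.21%, it did not pass (quasi-binomial adjusted p = 0.0912). *Trav19* was the exception among the 24 pairs, with 18.6% in WT and 20.01% in SKG, a log2 ratio of 0.10 with a scaled SE of 0.10 (quasi-binomial adjusted p = 0.505). The difference between the log2 odds ratios of *Traj56* in *Trav19* and in *Trav9d-3* was itself tested and amounted to 1.02 (SE 0.27, quasi-binomial adjusted p = 0.0176). That was the only call among 113 such tests over 3 pairs of V genes (0.885%). In unproductive sequences this difference was 0.45 and did not pass (quasi-binomial adjusted p = 0.942), and with the largest variance factor it did not pass either (quasi-binomial adjusted p = 0.27). The same difference between *Trav19* and *Trav11* was 0.66 and did not pass (quasi-binomial adjusted p = 0.219).

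For *Traj58*, the share in *Trav9-3* fell from 3.84% (9138 sequences) to 2.73% (3911), a log2 ratio of -0.49 with a quasi-binomial adjusted p of 0.0172. In *Trav19* it was 7.38% and 6.73%, a log2 ratio of -0.13 that did not pass (quasi-binomial adjusted p = 0.621). In *Trav11* the log2 ratio was -2.12 with a scaled SE of 1.70 and did not pass (quasi-binomial adjusted p = 0.487). The Wilson intervals of its 279 and 71 sequences do not overlap, but they leave out the *Trav11* variance factor of 78.9 that this SE holds. Under the same factor the scaled SE was 0.20 for *Traj57* in *Trav11*, with 9463 and 7778 sequences. The low counts of *Traj58* thus widen its SE as well. *Trav9-2*, with 3.11% and 1.89%, missed the threshold (quasi-binomial adjusted p = 0.0952).

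**Figure D3:**
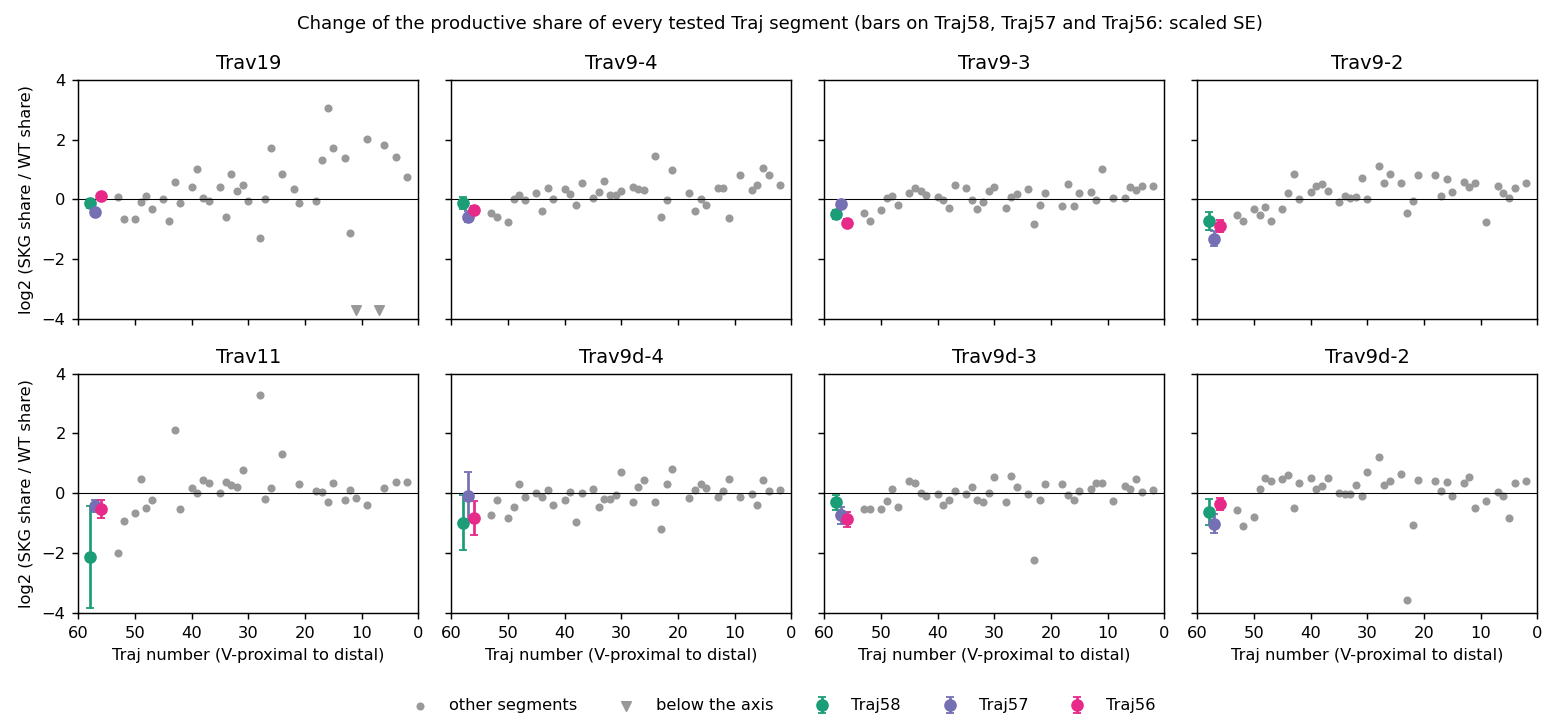
Log2 of SKG over WT share among productive sequences for every *Traj* segment tested, plotted against its number from the V-proximal to the distal end, in 8 V genes; coloured points are *Traj58*, *Traj57* and *Traj56* with their scaled SE, grey points are the other segments, and triangles mark points below the axis. In 23 of 24 cases the coloured points lie below 0, and 27 of the 48 grey points of *Traj55* to *Traj47* beside them are at most 0.8 times the WT share as well.

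The neighbours *Traj57* and *Traj56* did not change alike in *Trav19*. The ratio of *Traj57* to *Traj56* sequences was 0.896 in WT and 0.623 in SKG, a log2 change of -0.52 with a scaled SE of 0.14 (quasi-binomial adjusted p = 0.0452). It was 1 of 2 pairs of neighbouring segments called among 327 (0.612%). In *Trav9-3* the ratio was 0.575 and 0.892, a log2 change of 0.63 that did not pass (quasi-binomial adjusted p = 0.149). In *Trav11*, where *Traj57* prevailed, the ratio was 2.10 and 2.23. With unproductive sequences or the largest factor the *Trav19* call was lost. Among unproductive *Trav19* sequences, the *Traj57* part of the 3 segments was 32.5% in WT and 32.4% in SKG.

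Unproductive sequences are not subject to selection on the receptor they would encode, and the lists hold them beside the productive ones. Here too, the combined share of the 3 segments was lower in SKG in 7 of 8 V genes. In WT and SKG it was 14.4% and 8.79% in *Trav9-3*, 12.3% and 8.11% in *Trav11*, 11.2% and 6.73% in *Trav9d-2*, and 9.87% and 5.57% in *Trav9d-3*. In *Trav19* it was 45.3% and 44.8%, a difference of -0.506 points with a scaled SE of 1.76, and in *Trav9d-4*, with 513 and 249 sequences, it was 0.948% and 1.08%. Of the 24 pairs, 22 were below 0 on the log2 scale, against 149 of all 340 unproductive pairs. At most 0.8 times the WT share were 17 of the 24, and 22.6% of all 340. Higher by the same factor was 1 of the 24, *Traj58* in *Trav9d-4* with 90 and 141 sequences. Of the 6 pairs that the quasi-binomial comparison called lower in this class (1.76% of 340), 5 were among these 24, namely all 3 in *Trav9-3*, *Traj57* in *Trav11* and *Traj58* in *Trav9d-3*, each with an adjusted p of 0.0382.

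Between the functionality classes, the difference of the log2 odds ratios passed the quasi-binomial test with Benjamini-Hochberg adjustment for 0 of 333 pairs (0%), and for 17 at an unadjusted p under 0.05 (5.11%). Among these 17 were 4 of the 24 pairs. *Traj57* in *Trav19* had a log2 odds ratio of -0.49 in productive and -0.02 in unproductive sequences, and *Traj57* in *Trav9-3* of -0.16 and -0.82. *Traj58* had -0.30 and -1.26 in *Trav9d-3*, and -0.98 and 1.89 in *Trav9d-4*. The variance factor was estimated from these same differences between classes, taken over the segments of each V gene. Scaling by it sets the average size of the test statistics in advance. The numbers of pairs that passed therefore cannot show whether the classes changed alike.

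**Figure D4:**
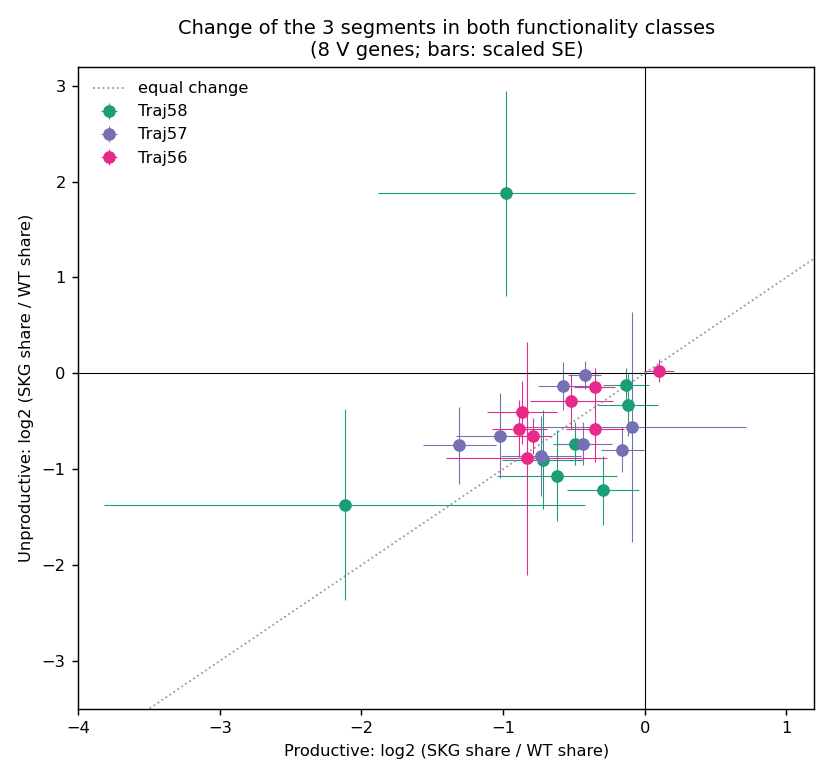
Log2 ratio of SKG to WT share in unproductive sequences (vertical axis) against that in productive sequences (horizontal axis) for *Traj58*, *Traj57* and *Traj56* in 8 V genes; error bars are scaled SE and the dotted line marks equal change. Of the 24 points, 22 lie in the quadrant below 0 on both axes, and *Traj58* in *Trav9d-4*, with a log2 ratio of 1.88 in unproductive sequences, stands apart with a wide error.

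The productive share of joins was compared with that of the other segments of the same V gene. Over the *Traj* segments other than these 3, 56.7% of WT and 66.7% of SKG *Trav19* joins were productive, and 55.7% and 55.8% of *Trav11* joins. *Traj56* of *Trav19* had 51.8% in WT and 62.2% in SKG, a difference of 10.4 points with a scaled SE of 2.42 that is close to the 10.03 points of the other segments. *Traj57* of *Trav19* had 58.6% and 60.9%, a difference of 2.29 points (scaled SE 2.87). *Traj58* of *Trav9d-3* had 46.996% and 71.6% (24.6 points, scaled SE 6.45), where the other segments had 61.5% and 70.1%. *Traj57* of *Trav9-3* had 55.9% and 74.3% (18.4 points, scaled SE 3.95), where the others had 61.6% and 69.7%. The rare *Traj58* joins of *Trav11* were productive in 33.5% of cases in WT and 23.3% in SKG (-10.2 points, scaled SE 25.9), from 834 and 305 sequences. These shares were 22.3 and 32.5 points below the other segments of that V gene. The scaled error of these 2 gaps was not computed, so whether they exceed it was not tested. The pairs named here are a selection of the 24. The variance factor was estimated from how the SKG minus WT changes of the productive share vary over the segments of each V gene. Their average size beside the scaled SE was thus set in advance. That comparison cannot show whether the segments of a V gene changed alike.

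Across the 16 profiles (8 V genes in 2 genotypes), the productive share of *Traj53* followed that of the 3 segments together most closely of 32 other segments, with a Spearman's rho of 0.891, ahead of *Traj52* with 0.762 and *Traj49* with 0.685. The lowest rho was -0.865 for *Traj26*, from the distal end. Profiles of the *Trav9* genes share their libraries and all shares of a profile add up to the same total, so these values are descriptions. Among the 3 segments themselves, rho was 0.776 for *Traj58* and *Traj56*, 0.706 for *Traj57* and *Traj56*, and 0.476 for *Traj58* and *Traj57*.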

How the data were processed

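Sequences were counted from the lists that the authors deposited for 6 libraries. Per the paper's methods, the authors built clonal sequences from the read pairs with MiXCR, cut primers off with cutadapt (1.13 per the labels), dropped exact duplicates and let IMGT/HighV-QUEST name the V and J genes. The deposited columns used are the functionality class and the V and J assignments, which are names; the identifiers measure nothing. Libraries held 249693 to 1587280 sequences.

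Shares were computed per V gene over productive sequences that listed a single *Traj* gene, with 95% Wilson intervals. Intervals and floors cover counting error only, and 3 sequences correspond to between 0.00119% and 0.00885% of a profile. For the variance factor, productive joins were modelled by logistic regression on segment and library, using segments with 50 or more sequences per library, and Pearson's chi-square was divided by its degrees of freedom. It does not measure the spread between mice. Quasi-binomial comparisons of log odds ratios, with 0.5 added to each cell, used segments with 100 or more sequences in the 2 libraries together and a normal approximation. Segments called had an adjusted p under 0.05. Alternatives were unproductive or all sequences, wider V and J filters, a V-proximal denominator, other variance factors, and another fold and minimum. The calculation was run on simulated clonal libraries with the segment shares of *Trav9-2*, which cannot show whether the variance factor suits the real libraries. The 3 segments, the lists of segments and the tests were chosen with earlier results of these data known.

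Named were the 3 segments in every V gene and library, *Traj61* to *Traj59*, the segments next to the 3, and the 3 others with the highest Spearman's rho. *Trav9-1* and *Trav9d-1* were left out for too few sequences. NCBIM37 with GENCODE gave sequences and positions, and RefSeq's GRCm38.p6 table gave only names and order. Python 3.11.15, numpy 2.4.6, pandas 2.3.3, scipy 1.17.1 and matplotlib 3.10.9 were used.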

Additional observations from a re-analysis of the deposited data

Results flagged for a closer look

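The change of *Traj56* between genotypes differed between V genes. The log2 odds ratio of SKG to WT was 0.13 in *Trav19* and -0.89 in *Trav9d-3*, a difference of 1.02 that passed the test of the difference itself (quasi-binomial adjusted p = 0.0176). In unproductive sequences the log2 odds ratios were 0.04 and -0.42, a difference of 0.45 that did not pass (quasi-binomial adjusted p = 0.942). All these values rest on 1 library per genotype, so library and genotype cannot be told apart.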

How the results depend on the processing

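With 1 library per genotype and amplicon, no library could be left out. No paired analysis was possible because the groups compared share a single replicate number. A fit with the 3 amplicons as pairs was not run, since they hold different V genes. The SKG minus WT differences in points of the combined share kept their direction under each alternative except for *Trav9d-4* in unproductive sequences (0.134), and these values moved. In unproductive sequences they were -0.506 for *Trav19*, -4.15 for *Trav11*, -1.62 for *Trav9-4*, -5.66 for *Trav9-3*, -5.16 for *Trav9-2*, -4.30 for *Trav9d-3* and -4.46 for *Trav9d-2*. In all sequences they were -2.69 for *Trav19*, -3.48 for *Trav11*, -2.73 for *Trav9-4*, -4.53 for *Trav9-3*, -7.05 for *Trav9-2*, -0.329 for *Trav9d-4* and -3.48 for *Trav9d-3*. As a share of *Traj61* to *Traj31* they were -2.34 for *Trav19*, -4.32 for *Trav11*, -4.64 for *Trav9-3*, -9.61 for *Trav9-2*, -1.16 for *Trav9d-4*, -4.99 for *Trav9d-3* and -6.37 for *Trav9d-2*. With V assignments that also list other genes, *Trav9d-4* had -1.28. Pairs called lower, called higher and called lower among the 3 segments numbered 6, 0 and 5 in unproductive sequences, 28, 14 and 13 in all sequences, and 1, 0 and 1 (*Traj57* in *Trav19*) with the largest variance factor for every V gene. Without a variance factor they numbered 116, 163 and 22, and 1 pair of the 3 segments was called higher. At a fold of 1.5, 41 pairs were lower, 37 higher and 11 of the 24 lower. The *Traj57* to *Traj56* ratio in *Trav19* was no longer called in unproductive sequences or with the largest factor, with 0 such pairs called in each. The log2 ratio changed sign for *Traj58* in *Trav9d-4* in unproductive (1.88) and all sequences (0.12), and for *Traj57* in *Trav9d-4* as a share of *Traj61* to *Traj31* (0.12). The log2 change of the *Traj57* to *Traj56* ratio changed sign in unproductive sequences for *Trav11* (-0.44), *Trav9-4* (0.018), *Trav9-3* (-0.15) and *Trav9d-3* (-0.46). The cause of these changes was not tested, except that the largest factor by construction widens the errors of every V gene but *Trav19*, to which it belongs. With that factor the error and the unadjusted p of the *Trav19* ratio stayed the same. Its call was lost through the adjustment over all pairs. Taking the first-listed *Traj* gene changed no call. Under alternatives chosen after seeing the data, the difference of *Traj56* between *Trav19* and *Trav9d-3* was 0.45 in unproductive sequences and 1.02 with the largest factor, no longer passing in either, and 0.80 in all sequences, where it passed. *Traj58* in *Trav11* and the 3 segments in *Trav9d-4* rest on 71 to 783 productive sequences in a library. These low counts and the variance factor together set the width of their errors.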
